A study of Xenopus laevis with 16 samples.

Results

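The comparison described here set the library of Nodal5-injected Xenopus laevis animal caps at 24 h against the library of control animal caps of the same age. These are 2 of the 16 libraries of the series and were taken by their labels. Animal caps are explants of blastula ectoderm, a tissue that is pluripotent when it is cut out and becomes epidermis when it is cultured untreated. The study asked which genes respond when such caps are directed towards heart tissue, and poly(A)+ RNA was sequenced from caps cultured for 2.5 h, 5 h, 7.5 h or 24 h.

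The control caps were uninjected and the Nodal5 caps came from embryos injected with nodal5 mRNA. The other 8 libraries came from caps carrying GATA4-GR, a hormone-inducible form of the transcription factor GATA4 that was switched on with dexamethasone, alone or with the Wnt antagonist Dkk-1. Each library was made from a pool of explants and each group was 1 library at each time, so no difference below has a replicate check and no test was made. The control received no injection, so the effect of Nodal5 and that of injecting an mRNA cannot be told apart.

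Nodal proteins are secreted ligands of the TGF-beta family that signal through activin receptors, the co-receptor Cripto and phosphorylated Smad2 and Smad3. Together with DNA-binding partners such as FoxH1, these Smads switch on genes of the mesoderm and endoderm. The tissue that forms in treated caps varies with the strength of the signal. Untreated caps follow the epidermal programme, which includes keratins, ciliated cells and ionocytes.

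The values were expected counts per gene model of an older genome annotation, and 0 of its 54142 identifiers were found in the RefSeq table used here. No model could therefore be given a gene name, a role or a sequence. The injected nodal5 transcript and the markers of epidermis, endoderm and heart could not be looked up, so the labelled tissue was not checked against markers. The models are described below by level, time and direction, and 4 of them, chosen by rule, are given by identifier.

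The control library at 24 h held 17145848 counts and the Nodal5 library 14053552, within the range of 11339819 to 23310242 over all 16 libraries. The filter on low counts left 30958 models. Counts were converted to CPM, the counts for every 1000000 of the library's TMM-scaled total, and a model was called higher or lower where the libraries differed at least 4-fold, computed with 2 prior counts added. The TMM factors were 0.710 for the control and 0.816 for Nodal5 at 24 h, against 1.02 to 1.1 for the 12 earlier libraries. At this depth 1 count equalled 0.0823 CPM in the control and 0.0873 CPM in Nodal5.

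Nodal5 caps differed widely from control caps at 24 h. Of the 30958 models, 2648 (8.55%) were at least 4-fold higher with Nodal5 and 3078 (9.94%) were at least 4-fold lower. A further 19303 models (62.4%) lay within 2-fold. The differences reached 10.99 on the log2 scale upwards and -10.26 downwards. Since the caps were sequenced in bulk, fewer cells of a type and less RNA per cell cannot be told apart.

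The series has no replicates against which to read these counts. The pair of libraries most alike at 24 h, GATA4-GR with and without Dkk-1, differed 4-fold in either direction in 406 models (1.31%), against 5726 models (18.5%) for Nodal5 and control. The other 4 pairs of 24 h libraries lay between, at 13.7% to 14.6%. The GATA4 pair also differs by treatment, so its figure is a yardstick and not a replicate error. Counting error alone did not span the 4-fold limit for most of these models. The exact 95% interval of the ratio lay wholly past 4-fold in 1567 of the higher models (59.2%) and in 1980 of the lower models (64.3%). The same libraries chose the models, which favours intervals past the limit, and the intervals treat rounded expected counts as reads. These shares are therefore a description.

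**Figure D1:**
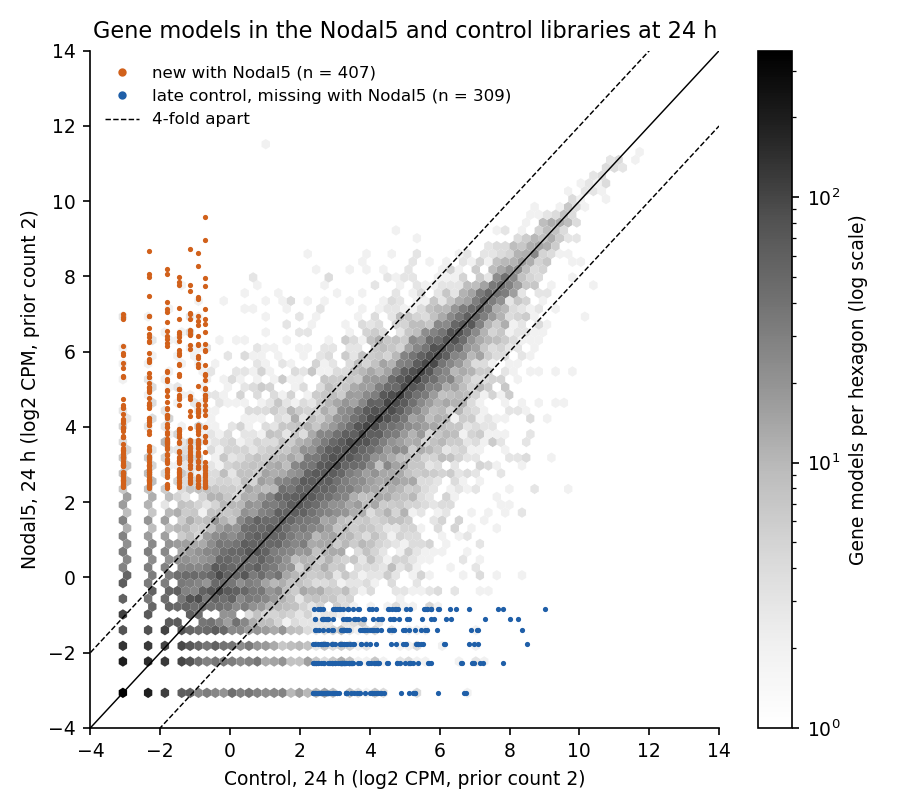
Level of each gene model in the control library (x axis) and the Nodal5 library (y axis) at 24 h, both in log2 CPM with a prior count of 2. Grey hexagons show the density of the 30958 models, dashed lines mark a 4-fold difference, and the 407 models new with Nodal5 (orange) and the 309 late control models missing with it (blue) lie along the low edges.

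Large differences were similar in number in each direction. At least 16-fold differences were seen in 832 models upwards and 930 downwards, and at least 256-fold differences in 65 and 51. Lower models made up the larger part of the 5726, of which 46.2% were higher with Nodal5, but this order turned when libraries were scaled by total counts alone, to 51.2% higher. The share of models 4-fold apart fell with the level. It was 11.9% higher and 11.8% lower among models with a mean under 1 CPM, and 3.2% higher and 4.72% lower among the 2372 models with a mean of at least 100 CPM. The filter let a model pass through any 1 library, which favours uneven models at low means. Folds at a few counts also carry the most counting error, so these shares are a description.

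More of the 100 most abundant control models were lower with Nodal5 than of the 100 most abundant Nodal5 models were higher. Of the 100 models with most counts in the control library, 34 were at least 4-fold lower with Nodal5, 0 were higher and 61 lay within 2-fold. Of the 100 with most counts in the Nodal5 library, 16 were higher, 1 was lower and 75 lay within 2-fold. The lists shared 61 models. Each list was ranked on 1 of the 2 compared libraries, which favours its own direction, so these counts are a description. The 3078 lower models held 24.2% of all counts in the control library and 2.01% in the Nodal5 library, while the 2648 higher models held 0.850% in control and 13.6% with Nodal5.

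The difference between the caps was broader at 24 h than at any earlier hour. At 2.5 h, 460 models were 4-fold higher with Nodal5 and 534 were lower, and at 5 h the counts were 574 and 303. At 7.5 h they were 891 (2.88%) and 520 (1.68%). Of the models 4-fold apart at 24 h, 2024 of the higher (76.4%) and 2760 of the lower (89.7%) had not been so, in that direction, at an earlier hour.

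A difference at 24 h can come from a change in the Nodal5 caps, in the control caps or in both after 7.5 h. Among the higher models, the Nodal5 level rose at least 4-fold from 7.5 h in 1291 (48.8%), against 11.2% of all models, and the control level fell at least 4-fold in 555 (21.0%), against 9.37%. In 826 (31.2%) neither library moved that far, against 67.3% of all models. The median change from 7.5 h was 1.94 on the log2 scale with Nodal5 and -0.47 in control. A rise in the Nodal5 caps was thus the most frequent of these histories, and in 469 models the control fell while the Nodal5 level moved less than 4-fold.

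Lower models had a different history. The control level rose at least 4-fold from 7.5 h in 2102 of the 3078 (68.3%), against 14.2% of all models, and the Nodal5 level fell at least 4-fold in 355 (11.5%), against 7.37% of all models. The median change was 3 on the log2 scale in control and 0 with Nodal5. Most of the lower models at 24 h were therefore models that rose in control and did not end as high with Nodal5. These changes use the 24 h libraries that defined the classes and are given as a description.

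Most of what was raised by Nodal5 at 7.5 h was still raised at 24 h. Of the 891 models 4-fold higher at 7.5 h, 563 (63.2%) were 4-fold higher at 24 h, where the share over all models was 8.55%. A further 112 were between 2- and 4-fold higher, 160 lay within 2-fold, and 29 (3.25%) were 4-fold lower. The median difference of the 891 models was 2.86 on the log2 scale at 7.5 h and 2.95 at 24 h, or 2.77 and 2.67 with models at 0 counts in 1 library placed at the 3-count floor. The libraries at 7.5 h and 24 h are separate, so the same-direction share was not built in by the choice of models.

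Fewer of the early lower models stayed lower. Of the 520 models 4-fold lower at 7.5 h, 213 (41.0%) were 4-fold lower at 24 h, against 9.94% of all models. A further 90 were between 2- and 4-fold lower, 163 lay within 2-fold, and 17 (3.27%) were 4-fold higher. The median difference moved from -2.51 on the log2 scale at 7.5 h to -1.50 at 24 h. The gap between the directions was smaller among models with at least 5 CPM in the higher of the 7.5 h libraries, where 316 of 439 higher models (72.0%) and 107 of 154 lower models (69.5%) persisted.

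The size of the difference at 7.5 h went with its persistence in both directions. Of models 4- to 8-fold higher at 7.5 h, 51.1% were still 4-fold higher at 24 h, and of those at least 16-fold higher, 88.6% were. The same shares were 31.8% and 90.5% for lower models. These groups were not matched for level at 7.5 h, which also went with persistence, so size and level cannot be told apart here. Of the differences at 2.5 h, 201 of 460 higher models (43.7%) and 167 of 534 lower models (31.3%) were still past 4-fold at 24 h. Of those at 5 h, 329 of 574 higher models (57.3%) and 134 of 303 lower models (44.2%) were. Among higher models the share was larger for each later hour, and among lower models it was larger from 5 h than from 7.5 h.

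**Figure D2:**
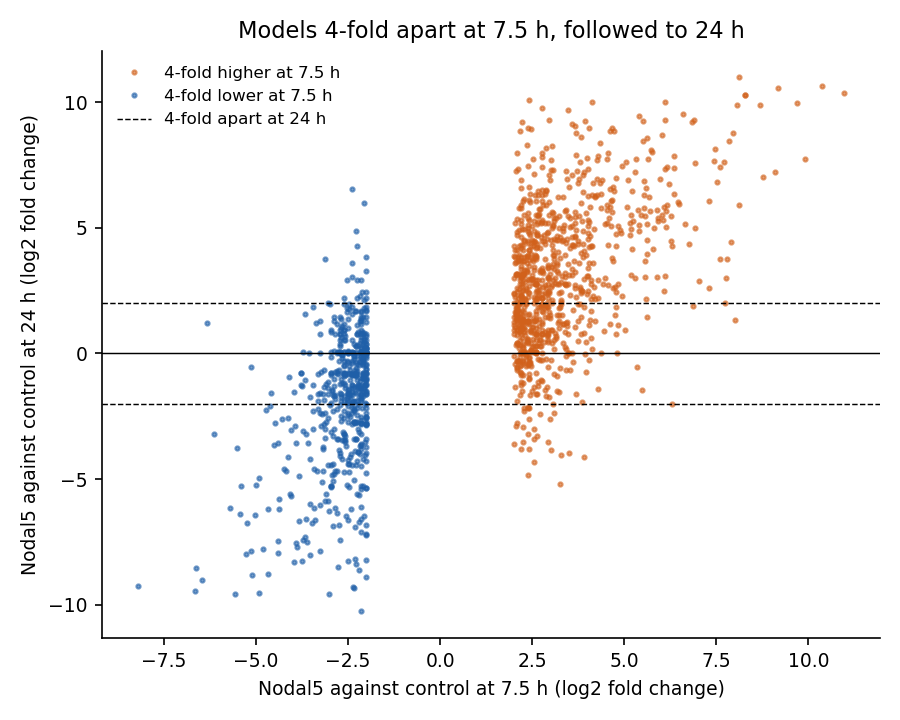
Difference between Nodal5 and control at 7.5 h (x axis) and at 24 h (y axis), both as log2 fold change, for the 891 models 4-fold higher (orange) and the 520 models 4-fold lower (blue) at 7.5 h. Points beyond the outer dashed line on their own side are the 563 and 213 models that were still 4-fold apart at 24 h.

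Of the models higher at 7.5 h, 328 were no longer 4-fold higher at 24 h. Among them the control level rose at least 4-fold between 7.5 and 24 h in 144 and the Nodal5 level fell at least 4-fold in 69, where the shares over all models were 14.2% and 7.37%. The loss of the difference that chose these models makes such changes more likely, so they are a description. The median change was 1.81 on the log2 scale in control and -0.54 with Nodal5. Of the 307 models that were lower at 7.5 h only, the Nodal5 level rose 4-fold in 92 and the control level fell 4-fold in 91. The shares over all models were 11.2% and 9.37%, and the same limit applies.

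A small core differed at every hour. In all 4 comparisons 147 models were 4-fold higher with Nodal5, with median log2 differences of 3.94, 4.25, 4.37 and 4.99 from the earliest to the latest hour. Placing zeros at the floor changed the last of these to 4.56. The 60 models that were 4-fold lower at every hour had medians of -2.95, -3.2, -3.53 and -5.25. The comparisons at the 4 hours share no library.

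The models that persisted held a larger share of counts at 24 h than at 7.5 h, in the arm where they were high. The 563 models higher at both 7.5 and 24 h held 3% of the Nodal5 counts at 7.5 h and 5.81% at 24 h, against 0.229% and 0.219% in control. The 213 lower models held 0.812% of the control counts at 7.5 h and 7.43% at 24 h. With Nodal5 they held 0.0923% and 0.247%, so a group already low in the Nodal5 caps at 7.5 h gained in the control caps. The 24 h libraries helped to choose both groups, which favours such gains, so they are a description.

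Xelaev16023970m.g was the model, among those with whole-number counts in every library, with the largest difference sustained at both hours. It had 0, 1, 2 and 0 counts in the control libraries in order of time. With Nodal5 it had 209, 438, 582 and 470 counts, which equal 12.1, 18.3, 50.3 and 41.0 CPM. It was thus near absent from control caps throughout and present with Nodal5 from the earliest hour. Control had 0 counts at 2.5 h and 24 h, and the lower limit of the counting interval was 49.6-fold and 135-fold higher with Nodal5. The GATA4 libraries at 24 h had 2 counts without Dkk-1 and 15 with it.

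Xelaev16023332m.g was the counterpart on the lower side. The control libraries had 71, 168, 240 and 2440 counts in order of time, and the Nodal5 libraries had 2, 7, 3 and 25. It rose in control at 24 h and stayed low with Nodal5, at 201 against 2.18 CPM. The control level was 47.0-fold that of Nodal5 at 7.5 h (counting interval 15.9 to 230) and 92.0-fold at 24 h (62.2 to 142). The GATA4 libraries at 24 h lay between, with 485 counts without Dkk-1 and 669 with it.

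Many of the lower models were late models of the control caps. A late control model was defined as one with at least 5 CPM in the control at 24 h and at least 4-fold above each earlier control library, and 2610 models met this, at a median of 36.0 CPM. With Nodal5, 309 of them (11.8%) were missing, that is under 0.5 CPM, 1124 (43.1%) were reduced at least 4-fold and 1177 (45.1%) were kept. Of the kept models, 60 were 4-fold higher with Nodal5, where the share over all models was 8.55%. The missing and reduced models together made up 1433 of the 3078 lower models (46.6%), while 8.43% of all models were late control models. The 24 h control library chose the late control models, which favours lower and disfavours higher Nodal5 levels, so these counts against that library are a description.

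The rise of late control models within the Nodal5 series did not use that library. Of the 2610 models, 887 (34.0%) were at least 4-fold above every earlier Nodal5 library at 24 h, against 2807 of all 30958 models (9.07%). Part of the late control programme therefore came up in the Nodal5 caps too. The kept, reduced and missing classes are defined by the Nodal5 library at 24 h, so their own shares, 55.6%, 20.6% and 2 of 309 models, follow in part from the definition. Among the reduced models 231 had risen in this way and still ended 4-fold below control.

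The late control models took up a large part of the control transcriptome. They held 32.8% of the control counts at 24 h and 15.3% of the Nodal5 counts. The reduced models accounted for the gap, with 20.1% in control and 1.48% with Nodal5, whereas the kept models held 12.0% and 13.8%. In the GATA4 libraries at 24 h the reduced models held 7.02% without Dkk-1 and 5.90% with it.

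**Figure D3:**
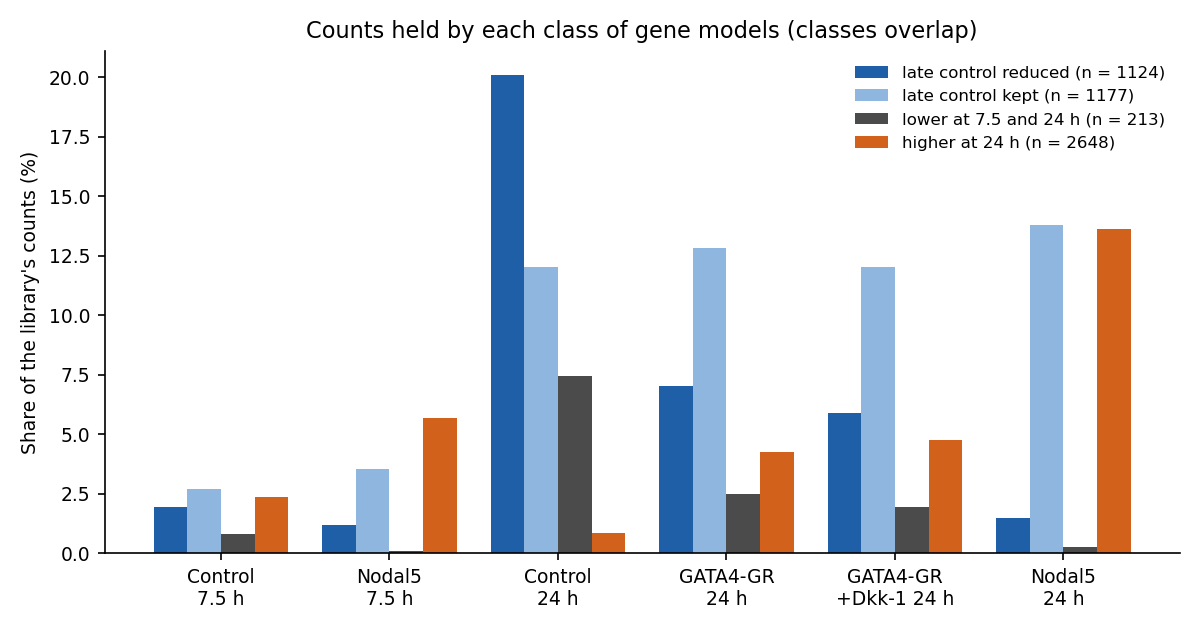
Share of each library's counts (y axis, percent) held by 4 overlapping classes of gene models in 6 libraries at 7.5 and 24 h. The 1124 late control models reduced with Nodal5 held 20.1% of the control library at 24 h and 1.48% of the Nodal5 library, while the 2648 models higher at 24 h held 0.850% and 13.6%.

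A few models made up much of this share. The 10 most abundant late control models that were missing or reduced held 6.31% of the control counts and 0.278% of the Nodal5 counts, and each was at least 3.14 lower on the log2 scale. The 100 most abundant held 13.7% and 0.862%. The higher models were less concentrated, with 2.83% of the Nodal5 counts in the 10 most abundant and 7.12% in the 100 most abundant.

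Late control models of every level were among those lost or reduced. Of 917 late control models at 5 to 20 CPM in control, 22.7% were missing with Nodal5 and 30.2% were reduced, and of 72 models in the highest class of abundance, whose median was 2130 CPM, 0 were missing and 42 (58.3%) were reduced. Since missing means under 0.5 CPM, the low models need a smaller fall to be counted. Models under 0.5 CPM in all earlier control libraries were missing in 43.3% of 490 cases, and those seen earlier in 4.58% of 2120, but their median control levels also differed, at 11.7 and 49.6 CPM.

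By definition the 309 missing models were late in control and under 0.5 CPM with Nodal5 at 24 h. In the earlier control libraries 212 of them had stayed under 0.5 CPM, against 490 of all 2610 late control models. At the earlier hours as well as at 24 h, 227 of the missing models were under 0.5 CPM with Nodal5. At 24 h 63 had 0 counts with Nodal5, which allows up to 0.262 CPM (3 counts). Their control level had a median of 12.6 CPM and reached 523 CPM, with 23 models at 100 CPM or more. The median difference was -5.71 on the log2 scale, or -5.44 with zeros at the floor.

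In the GATA4 caps at 24 h, 277 of the 309 missing models (89.6%) had at least 0.5 CPM with GATA4-GR and 293 (94.8%) with GATA4-GR and Dkk-1. Over all models tested, at any control level, these shares were 83.5% and 84.3%. Of the 2610 late control models, which share the limit of 5 CPM in control, only 56 and 23 were under 0.5 CPM there. Missing models made up 32 and 16 of these, so they fell under 0.5 CPM more often than late control models as a whole. The medians were 2.55 and 2.21 CPM, against 12.6 CPM in control, the library that chose these models. Of the 309, 64 reached 5 CPM in both GATA4 libraries, and 11 were under 0.5 CPM in both. In the single libraries 98 and 77 of the missing models reached 5 CPM, against 1913 and 1888 of the 2610 late control models. The missing models had a lower control median than all late control models, 12.6 against 36.0 CPM, so these comparisons are not matched for level.

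Xelaev16052923m.g had the highest control level among the missing models with whole-number counts. The control libraries had 11, 11, 9 and 1529 counts at the 4 hours and the Nodal5 libraries had 2, 4, 1 and 1. Its level at 24 h was 126 CPM in control and 0.0873 CPM with Nodal5, a ratio of 1440 that rests on 1 count and has a counting interval of 258 to 57000. The GATA4 libraries at 24 h were far apart for this model, with 169 counts (13.1 CPM) without Dkk-1 and 2182 counts (134 CPM) with it, so that the level with Dkk-1 was close to that of control.

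**Figure D4:**
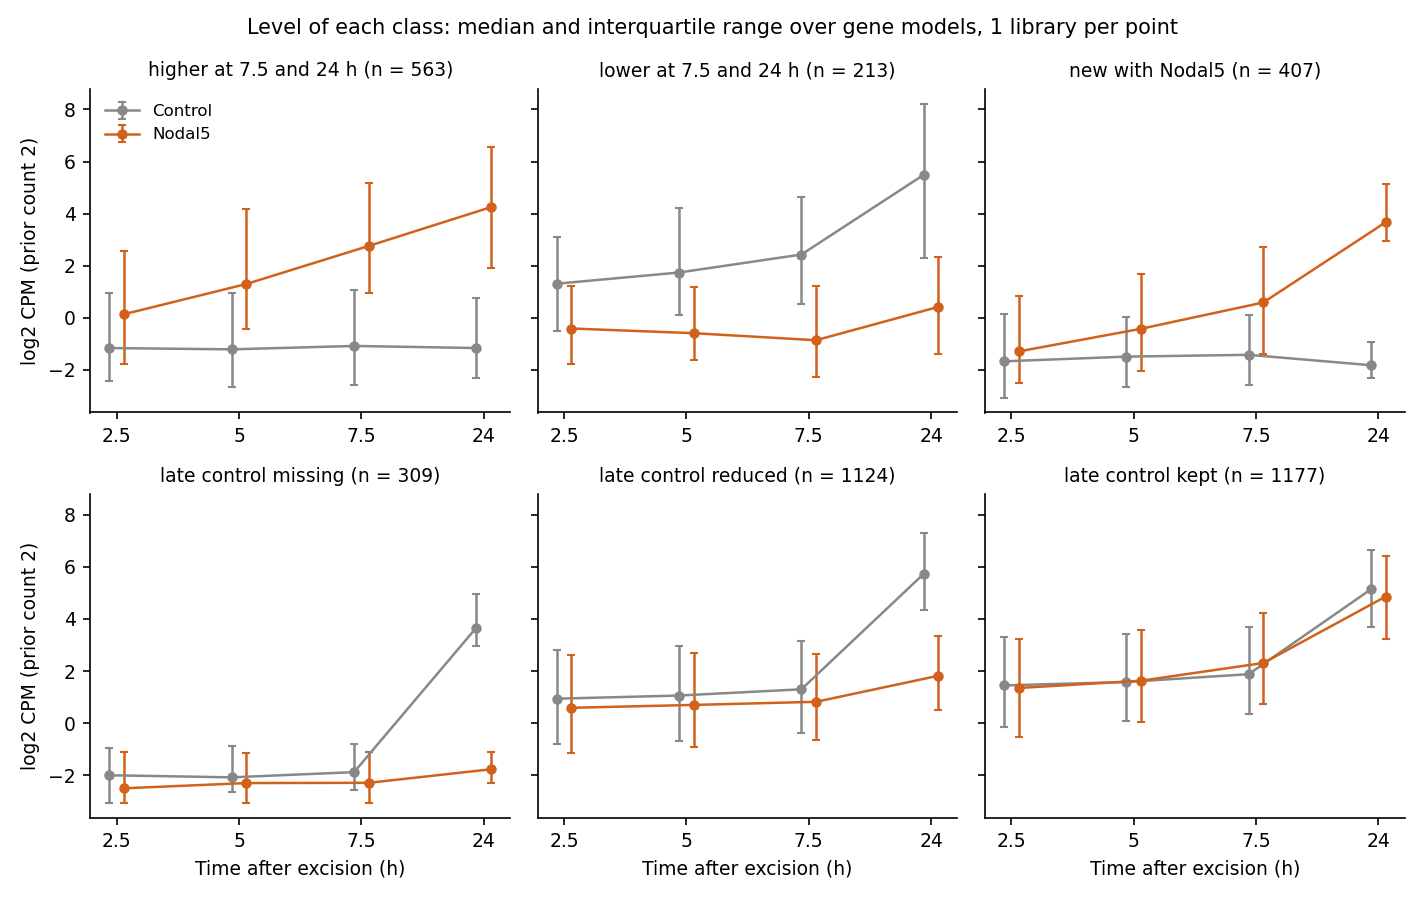
Level of 6 classes of gene models in the control (grey) and Nodal5 (orange) libraries by time (x axis, h). Points are medians over the models of a class in 1 library, in log2 CPM with a prior count of 2, and bars are interquartile ranges over models, not replicate error. The median of the 309 missing models was 3.67 in control and -1.77 with Nodal5 at 24 h, and that of the 1177 kept models was 5.14 and 4.86.

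The Nodal5 caps also had late models, in part other than those of control. By the same definition applied to the Nodal5 libraries, 1715 models were late with Nodal5, and 719 were late in both, which is 27.5% of the late control models and 41.9% of the late Nodal5 models. Over all models tested, 8.43% were late in control and 5.54% late with Nodal5. Of the 996 that were late with Nodal5 only, 716 were 4-fold higher with Nodal5 than in control at 24 h. The share over all models was 8.55%. Both 24 h libraries helped to choose the 996 models, so this count is a description. Of the 719 shared models, 53 were 4-fold higher and 113 were 4-fold lower with Nodal5, where the shares over all models were 8.55% and 9.94%. The shared class asks for at least 5 CPM in both 24 h libraries, so these counts are a description too.

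Models new with Nodal5 were those with at least 5 CPM in the Nodal5 library at 24 h and under 0.5 CPM in the control library. There were 407, with a median of 12.6 CPM and a highest level of 763 CPM. The filter on low counts let a model pass through any 1 library, the Nodal5 library at 24 h included. With a filter by time point and treatment there were 274. They held 1.32% of the Nodal5 counts. In the control library 68 of them had 0 counts, which allows up to 0.247 CPM (3 counts). The median difference was 5.63 on the log2 scale, or 5.37 with zeros at the floor.

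Only a part of these models was new in time. Under 0.5 CPM in all earlier Nodal5 and control libraries were 107 (26.3%), and they were of lower abundance, with a median of 9.60 CPM and 2 models at 100 CPM or more. A further 127 (31.2%) had been detected in earlier Nodal5 libraries but not in earlier control libraries, with a median of 17.5 CPM at 24 h. For 101 of these the level was already 4-fold higher at 7.5 h, where the share over all models was 2.88%. The group was chosen by detection in earlier Nodal5 libraries and not in earlier control libraries, so this count follows in part from the definition.

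The rest had been detected in control caps before, mostly at low levels. In 164 (40.3%) both the earlier Nodal5 and the earlier control libraries reached 0.5 CPM, and in 9 (2.21%) the earlier control libraries alone did. The control median of the 164 at 7.5 h was 1.24 CPM, and 24 of them reached 5 CPM there. In the group of 164 the median change from 7.5 to 24 h was -2.05 on the log2 scale in control and 1.73 with Nodal5. In the median these models fell in the control caps and rose with Nodal5. The definition asks for a low control level and a higher Nodal5 level at 24 h, so both changes follow in part from it.

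In the GATA4 caps at 24 h, 233 of the 407 new models (57.2%) had at least 0.5 CPM in both libraries. Over all models tested, at any control level, this share was 80.5%. There were 118 under 0.5 CPM in both, and 76 reached 5 CPM in both. The median was 0.928 CPM with GATA4-GR and 1.29 CPM with GATA4-GR and Dkk-1, against 12.6 CPM with Nodal5, a library that chose these models. The choice by a high Nodal5 level and a low control level favours lower GATA4 values, so these are a description. Of the 107 models under 0.5 CPM at all earlier hours, 52 were under 0.5 CPM in both GATA4 libraries.

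Xelaev16067368m.g had the highest Nodal5 level among the new models with whole-number counts. The Nodal5 libraries had 0, 21, 94 and 1613 counts at the 4 hours and the control libraries had 3, 12, 6 and 6. The level with Nodal5 thus climbed from 5 h onwards, to 141 CPM at 24 h against 0.494 CPM in control. It was 26.7-fold higher at 7.5 h (counting interval 11.8 to 74.5) and 285-fold higher at 24 h (131 to 778). The GATA4 libraries at 24 h had 1 count without Dkk-1 and 3 with it.

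**Figure D5:**
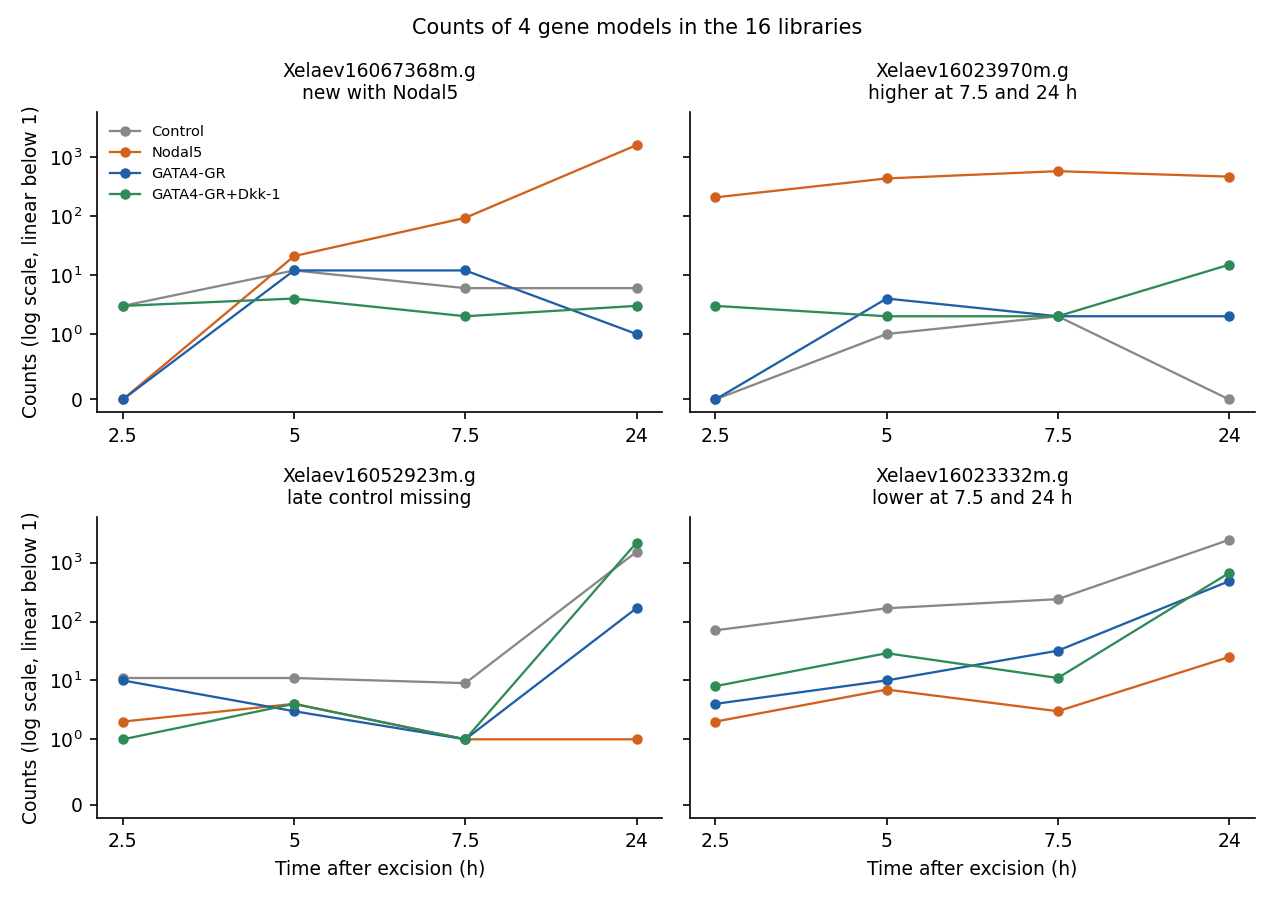
Counts of the 4 models given by identifier (y axis, log scale, linear below 1) in the 16 libraries by time (x axis, h), with 1 library per point and a line for each treatment. Xelaev16067368m.g and Xelaev16023970m.g reached 1613 and 470 counts with Nodal5 at 24 h, and Xelaev16052923m.g and Xelaev16023332m.g reached 1529 and 2440 counts in control.

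Similar shares of models stayed at 5 CPM or more in both arms, while more models fell under 0.5 CPM in control. Of 15174 models with at least 5 CPM in the Nodal5 library at 7.5 h, 13143 (86.6%) were at 5 CPM or more at 24 h, 1976 were lower but detected and 55 were under 0.5 CPM. In control, 13024 of 15146 (86.0%) were at 5 CPM or more at 24 h and 127 were under 0.5 CPM. Of the 14454 models present in both arms at 7.5 h, 21 were present with Nodal5 and under 0.5 CPM in control at 24 h, and 6 were the reverse.

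The GATA4 comparisons share the control library with that of Nodal5, so their levels are given side by side and no overlap was drawn. The 2648 models higher with Nodal5 had a median of 7.16 CPM with Nodal5, 0.370 CPM in control, 1.62 CPM with GATA4-GR and 1.78 CPM with GATA4-GR and Dkk-1. The 3078 lower models had 0.960 CPM with Nodal5, 14.5 CPM in control, 3.87 CPM with GATA4-GR and 3.69 CPM with GATA4-GR and Dkk-1. The models were chosen for their distance between Nodal5 and control, so medians of the GATA4 libraries between these values follow from the choice. The Nodal5 level was at least 4-fold above both GATA4 libraries in 1113 of the higher models, and in 1389 of all models. It was at least 4-fold below both in 910 of the lower models, and in 2020 of all models. The same Nodal5 library chose the models, so these counts are a description.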

How the data were processed

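Paired-end reads were aligned by the authors with Bowtie to the JGI gene models, version 7.2, and the deposited values are expected counts per model from RSEM (versions not given in the sources used here), 1 column for each of 16 libraries. RSEM divides reads between near-identical models such as homeologues. It was run by the authors with default parameters, which do not use strand, although the library kit was directional, so overlapping antisense models cannot be told apart. Counts were rounded to whole numbers.

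Models were filtered with edgeR 4.0.16 (R 4.3.3; filterByExpr, minimum count 10, each library its own group), leaving 30958 of 54142 (57.2%), and scaled by TMM. Log2 CPM used a prior count of 2. Intervals are exact (Clopper-Pearson, 95%) and, like the floor of 3 counts, cover counting error only. The calls of higher and lower models at 24 h were tested on simulated data with counting error only. The other classes and the intervals were not tested in this way.

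The named models were those with counts whole within 0.01 in all 16 libraries that had the highest level among new or missing models, or the largest difference sustained at 7.5 and 24 h. Members and lists were chosen with earlier results of these data known. Alternatives were size factors of DESeq2 1.42.0, total-count scaling, other filters, thinning, prior counts and thresholds.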

Additional observations from a re-analysis of the deposited data

Results flagged for a closer look

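A few models differed 4-fold in opposite directions at 7.5 and 24 h. In 29 models the level was higher with Nodal5 at 7.5 h and lower at 24 h. They were 3.25% of the models higher at 7.5 h, while 9.94% of all models were lower at 24 h. The median control level of the 29 went from 0.203 CPM to 11.4 CPM, while the Nodal5 level went from 2.42 CPM to 1.13 CPM. The control level rose at least 4-fold in 27, against 14.2% of all models. In 17 models the level was lower at 7.5 h and higher at 24 h. They were 3.27% of the models lower at 7.5 h, while 8.55% of all models were higher at 24 h. The median Nodal5 level of the 17 went from 0.0864 CPM to 10.0 CPM and the control level from 0.965 CPM to 1.32 CPM. Opposite calls at both hours require large changes between them, so these changes follow from the choice and are a description. At 7.5 h only 10 of the 29 and 4 of the 17 reached 5 CPM in either library. With 1 library per group the difference between the hours was not tested.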

How the results depend on the processing

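Of 76 values under alternative settings, 53 lay within 1.5 times the reported count and 23 did not. With a 2-fold threshold, 5468 models were higher and 6187 lower at 24 h, 1356 were still higher and 981 still lower after 7.5 h, and 4637 were late control models. With an 8-fold threshold these counts were 1475, 1698, 257, 70 and 1589. Restricting to the 6212 models with whole-number counts, which is fewer models by construction, gave 836 higher, 923 lower, 153 still higher, 43 still lower, 474 late control, 131 missing, 135 new and 348 present at both hours. A presence limit of 10 CPM gave 183 missing and 248 new models, and an absence limit of 1 CPM gave 489 missing models. A filter by time point and treatment gave 2092 higher, 2546 lower, 263 missing and 274 new models. The count still lower at 24 h was sensitive to the prior count, at 506 with 0.5 and 136 with 5 (the cause was not tested).

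Scaling by total counts shifted the median difference of all models by 0.172 on the log2 scale, and gave 2784 higher and 2655 lower models. The late control class compares hours whose TMM factors differed, and with total counts it held 1782 models against the reported 2610. Of these 1782, 15.4% were missing and 61.4% were missing or reduced. Over all settings the share of early higher models still higher ranged from 56.9% to 66.2%, and that of early lower models still lower from 27.6% to 57.9%. The share of late control models missing or reduced ranged from 52.8% to 71.3%. That of missing models alone ranged from 6.92% with the 2-fold threshold to 27.6% among models with whole-number counts. Among those, 60.4% of the models present with Nodal5 at 7.5 h were present at 24 h, against 86.6% as reported. No paired analysis was possible because the labels give no replicate numbers and each group was 1 library at each hour. Depth limits statements on models near 0.5 CPM, which is only a few counts in either 24 h library.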
